A study of Mus musculus with 6 samples.

Results

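Axonemal dynein heavy chains are the ATP-driven motor proteins that slide the microtubule doublets of cilia and flagella past each other. The 7 genes described here, Dnah1, Dnah2, Dnah6, Dnah8, Dnah10, Dnah12 and Dnah17, were taken by symbol from the 30905 genes counted in single-cell RNA-seq of adult mouse testis. The group was chosen by its stage of expression and its spread between libraries in these data, and Dnah8 was selected on its lower mean in smoking libraries in most cell classes and its wide spread, so its smoking contrast and its spread are given as a description, with no test. The stage profiles are likewise a description.

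In the axoneme, outer dynein arms set beat frequency and inner dynein arms shape the bend. Dnah8 and Dnah17 encode outer arm heavy chains of the sperm tail. Dnah2 and Dnah10 encode the heavy chains of the double-headed inner arm, and Dnah1, Dnah6 and Dnah12 encode heavy chains of single-headed inner arms. In men variants in several of these genes are known to cause immotile sperm with malformed tails.

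Testes came from ICR mice, an outbred stock, in 3 smoking libraries and 3 control libraries, from left testes cleared of dead cells and profiled with droplet 3′ chemistry, where a unique molecular identifier (UMI) stands for 1 captured transcript. Mice arrived at 6 weeks of age and had 1 week to settle. The smoking group then spent 30 minutes a day over 12 weeks in a chamber with the smoke of 15 cigarettes, each with 1.1 mg nicotine and 11 mg tar, at 3.47 mg/m3 of smoke. Control mice went into a chamber daily over the same period with no cigarettes. Each group had 7 mice, and the labels do not say which or how many gave each library, so p-values measure the spread between these libraries, which may be technical. The labelled age of 8 weeks is the same in both groups and is younger than that schedule gives.

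Retained barcodes numbered 7710 to 8636 in smoking libraries and 7703 to 7994 in control libraries, with 48754869 to 69053234 UMIs in smoking and 35550128 to 49397204 UMIs in control libraries. Of 47950 retained barcodes, 53.6% stayed unnamed, and 8 classes named from marker genes were measured in every library. Class names carry "-like" because no deposited annotation was used, and dynein heavy chains took no part in clustering. Of 53886 distinct barcode sequences, 365 occurred in more than 1 library. Levels are CPM, a gene's UMIs scaled to the total UMIs of a class in a library. The deposited counts hold 3′ tags and were not divided by transcript length, so levels are compared within a gene and not between genes.

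The members are among the longest genes of the mouse. Their longest coding transcripts run from 12009 bases in Dnah12 to 16685 bases in Dnah8, against a median of 2684 bases over 21811 genes with a coding transcript (GENCODE M21, GRCm38). Dnah8 spans 253 kb on the plus strand of chromosome 17, from 30624354 to 30877365, with 93 exons in its longest coding transcript. Dnah1 (chromosome 14, 31260375 to 31323896, minus strand) is the most compact at 63.5 kb. Dnah12 lies on the same chromosome from 26693274 to 26891703 on the plus strand. Dnah2 (69420809 to 69549110) and Dnah17 (118021723 to 118130634) are both on the minus strand of chromosome 11. Dnah6 lies on chromosome 6 from 73017606 to 73221651 on the minus strand, and Dnah10 on chromosome 5 from 124725085 to 124834308 on the plus strand. Several members overlap genes on the other strand: Dnah8 overlaps Glo1 and the noncoding 1700097N02Rik at its 5′ end, Dnah17 overlaps Pgs1, and Dnah2 holds the antisense Dnah2os. Whether counting used strand is not stated in the labels or headers, so reads in such overlaps cannot be told apart.

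Upstream sequences are shown for Dnah1, Dnah6 and Dnah8, highest by mean CPM in spermatocyte-like cells, and Dnah10, highest in round spermatid-like cells. Each is the 250 bases before the RefSeq transcript start, 5′ to 3′ on the gene's strand (GRCm38.p6): Dnah8 at chr17:30626686-30626935 (+), Dnah1 at chr14:31323897-31324146 (−), Dnah6 at chr6:73221632-73221881 (−) and Dnah10 at chr5:124724835-124725084 (+). Capitals mark matches on either strand to any of the motifs searched. Dnah2, Dnah12 and Dnah17, also highest in spermatocyte-like cells, were searched but are not shown. Every sequence shown holds a match to the MYB motif, as does that of Dnah12, while those of Dnah2 and Dnah17 hold none.
Dnah8: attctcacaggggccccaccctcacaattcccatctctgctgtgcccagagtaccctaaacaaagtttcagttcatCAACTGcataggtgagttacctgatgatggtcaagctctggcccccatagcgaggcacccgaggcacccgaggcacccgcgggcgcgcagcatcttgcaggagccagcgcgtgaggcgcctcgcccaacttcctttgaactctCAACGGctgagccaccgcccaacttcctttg
Dnah1: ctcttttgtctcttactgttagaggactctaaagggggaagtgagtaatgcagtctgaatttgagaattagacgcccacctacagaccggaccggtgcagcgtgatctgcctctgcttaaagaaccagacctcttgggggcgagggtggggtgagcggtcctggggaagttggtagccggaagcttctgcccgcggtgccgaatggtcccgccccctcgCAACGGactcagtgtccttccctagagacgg
Dnah6: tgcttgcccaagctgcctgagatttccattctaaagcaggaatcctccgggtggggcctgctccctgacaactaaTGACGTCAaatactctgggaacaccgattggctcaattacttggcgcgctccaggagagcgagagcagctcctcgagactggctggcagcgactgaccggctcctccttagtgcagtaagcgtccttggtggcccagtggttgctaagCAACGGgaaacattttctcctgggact
Dnah10: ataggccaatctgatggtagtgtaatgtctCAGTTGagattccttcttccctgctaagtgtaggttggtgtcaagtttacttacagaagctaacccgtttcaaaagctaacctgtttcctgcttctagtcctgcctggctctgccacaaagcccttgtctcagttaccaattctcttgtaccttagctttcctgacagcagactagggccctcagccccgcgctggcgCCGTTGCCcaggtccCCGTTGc

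The motifs searched were the MYB core CNGTTG, the RFX core GTTGCC, the cAMP-response core TGACGT and its full palindrome TGACGTCA (which contains the core), the forkhead core GTAAACA and the E-box CACGTG. The MYB core was found upstream of 5 of the 7 members (all but Dnah2 and Dnah17), and in 29.3% of 32851 RefSeq promoters. Nearest the start it began 31 bases upstream in both Dnah8 and Dnah1, 27 bases upstream in Dnah6 and 7 bases upstream in Dnah10. Dnah6 alone among the members held the full cAMP-response palindrome, which 1.55% of promoters hold. Dnah10 alone held the RFX core, 20 bases upstream and overlapping a MYB match, against 10.4% of promoters. Dnah17 alone held the forkhead core, found in 3.17% of promoters, and no member held the E-box. The RefSeq start of Dnah8, at 30626936, lies downstream of the GENCODE start given above. Its window also contains the GENCODE start of Glo1, which is transcribed the other way from 65 bases upstream of the Dnah8 start, and that of 1700097N02Rik from 31 bases upstream.

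By mean CPM over the 6 libraries, 6 of the 7 members were highest in spermatocyte-like cells, and Dnah10 was highest in round spermatid-like cells. This is a description, since the classes were built from these cells. The share of a member's UMIs found in spermatocyte-like cells was 32.7% for Dnah8 and as low as 13.3% for Dnah10, and round spermatid-like cells held 30.6% of Dnah6, 32.9% of Dnah10 and 29.7% of Dnah1 UMIs. Unnamed barcodes held 29.6% of Dnah1 to 41.6% of Dnah10 UMIs. The profile was also read in clusters of deeply sampled barcodes, counted as UMIs per barcode, a view added after the data were seen. Clusters are named here by their leading gene. Dnah8 gave 3.03 ± 1.68 UMIs per barcode in the Crabp1-led spermatogonia-like cluster, 129.6 ± 55.9 in the spermatocyte-like cluster led by the piRNA-pathway gene Piwil1, and 15.0 ± 9.24 in the 1700121L03Rik-led round spermatid-like cluster (SD, n = 6 libraries). In the remaining clusters it gave 3.93 ± 2.19 UMIs per barcode in the unnamed Hemgn-led cluster, 2.53 ± 1.30 in the Cstl1-led and 2.36 ± 1.31 in the Tnp1-led elongating spermatid-like cluster. These counts are not scaled to depth. Median UMIs were 12852 in the Crabp1-led, 53495 in the Piwil1-led, 33471 in the 1700121L03Rik-led and 21710 in the Tnp1-led cluster. As CPM pooled over libraries, Dnah8 stood at 220.2, 2041, 278.9 and 90.8 in the same clusters.

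Free RNA sets a floor under such levels in droplet data. The floor was taken from macrophage-, mesenchymal-, endothelial- and peritubular myoid-like barcodes, cells that carry no motile flagellum, pooled without the class where the gene was highest. Dnah8 still gave 1.85 UMIs per barcode there. The level of Dnah8 in elongating spermatid-like clusters was thus close to that floor. At that floor, taken library by library, expected free RNA made up 16.7% of Dnah8 UMIs in spermatocyte-like cells, 41.4% in round spermatid-like cells, 78.0% in elongating spermatid-like cells, 64.1% in spermatogonia-like cells and 96.7% in Sertoli-like cells. In a further spermatocyte-like cluster led by Dazl and Meiob (137 barcodes pooled over libraries) Dnah8 stood at 6.83 UMIs per barcode, between the Crabp1-led and Piwil1-led clusters. For Dnah8 the unnamed barcodes held 36.7%.

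Dnah1, Dnah12 and Dnah17 also had their highest mean of these clusters in the Piwil1-led one. Dnah1 gave 0.194 ± 0.0707 UMIs per barcode in the Crabp1-led, 8.30 ± 3.03 in the Piwil1-led and 2.22 ± 0.470 in the 1700121L03Rik-led cluster, with a somatic floor of 0.110. Dnah12 gave 0.129 ± 0.0571, 6.79 ± 2.24 and 1.28 ± 0.109 UMIs per barcode in the same 3 clusters, with a floor of 0.104. Dnah17 gave 0.281 ± 0.0742, 9.69 ± 3.098 and 1.56 ± 0.241 UMIs per barcode there, with a floor of 0.1875. In the Hemgn-led cluster Dnah17 held 1.08 ± 0.382 UMIs per barcode, and Dnah12 was at 0.178 ± 0.0540.

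The other inner arm genes differed in how their levels compared between spermatocyte-like and round spermatid-like cells. Dnah2, of the double-headed inner arm, gave 2.70 ± 1.13 UMIs per barcode in the Piwil1-led and 0.280 ± 0.0520 in the 1700121L03Rik-led cluster. Its CPM in spermatocyte-like cells was 3.19 to 5.51 times that in round spermatid-like cells in each of the 6 libraries. Dnah6 differed less between them, with 2.01 ± 0.442 and 0.970 ± 0.124 UMIs per barcode in these clusters, and its CPM ratio between these classes was 1.09 to 1.45. Dnah10, the partner of Dnah2 in the double-headed arm, gave 0.628 ± 0.221 UMIs per barcode in the Piwil1-led and 0.667 ± 0.0802 in the 1700121L03Rik-led cluster, which overlap within the SD. Its CPM ratio of spermatocyte-like to round spermatid-like cells was below 1 in all 6 libraries, from 0.667 to 0.935.

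**Figure D1:**
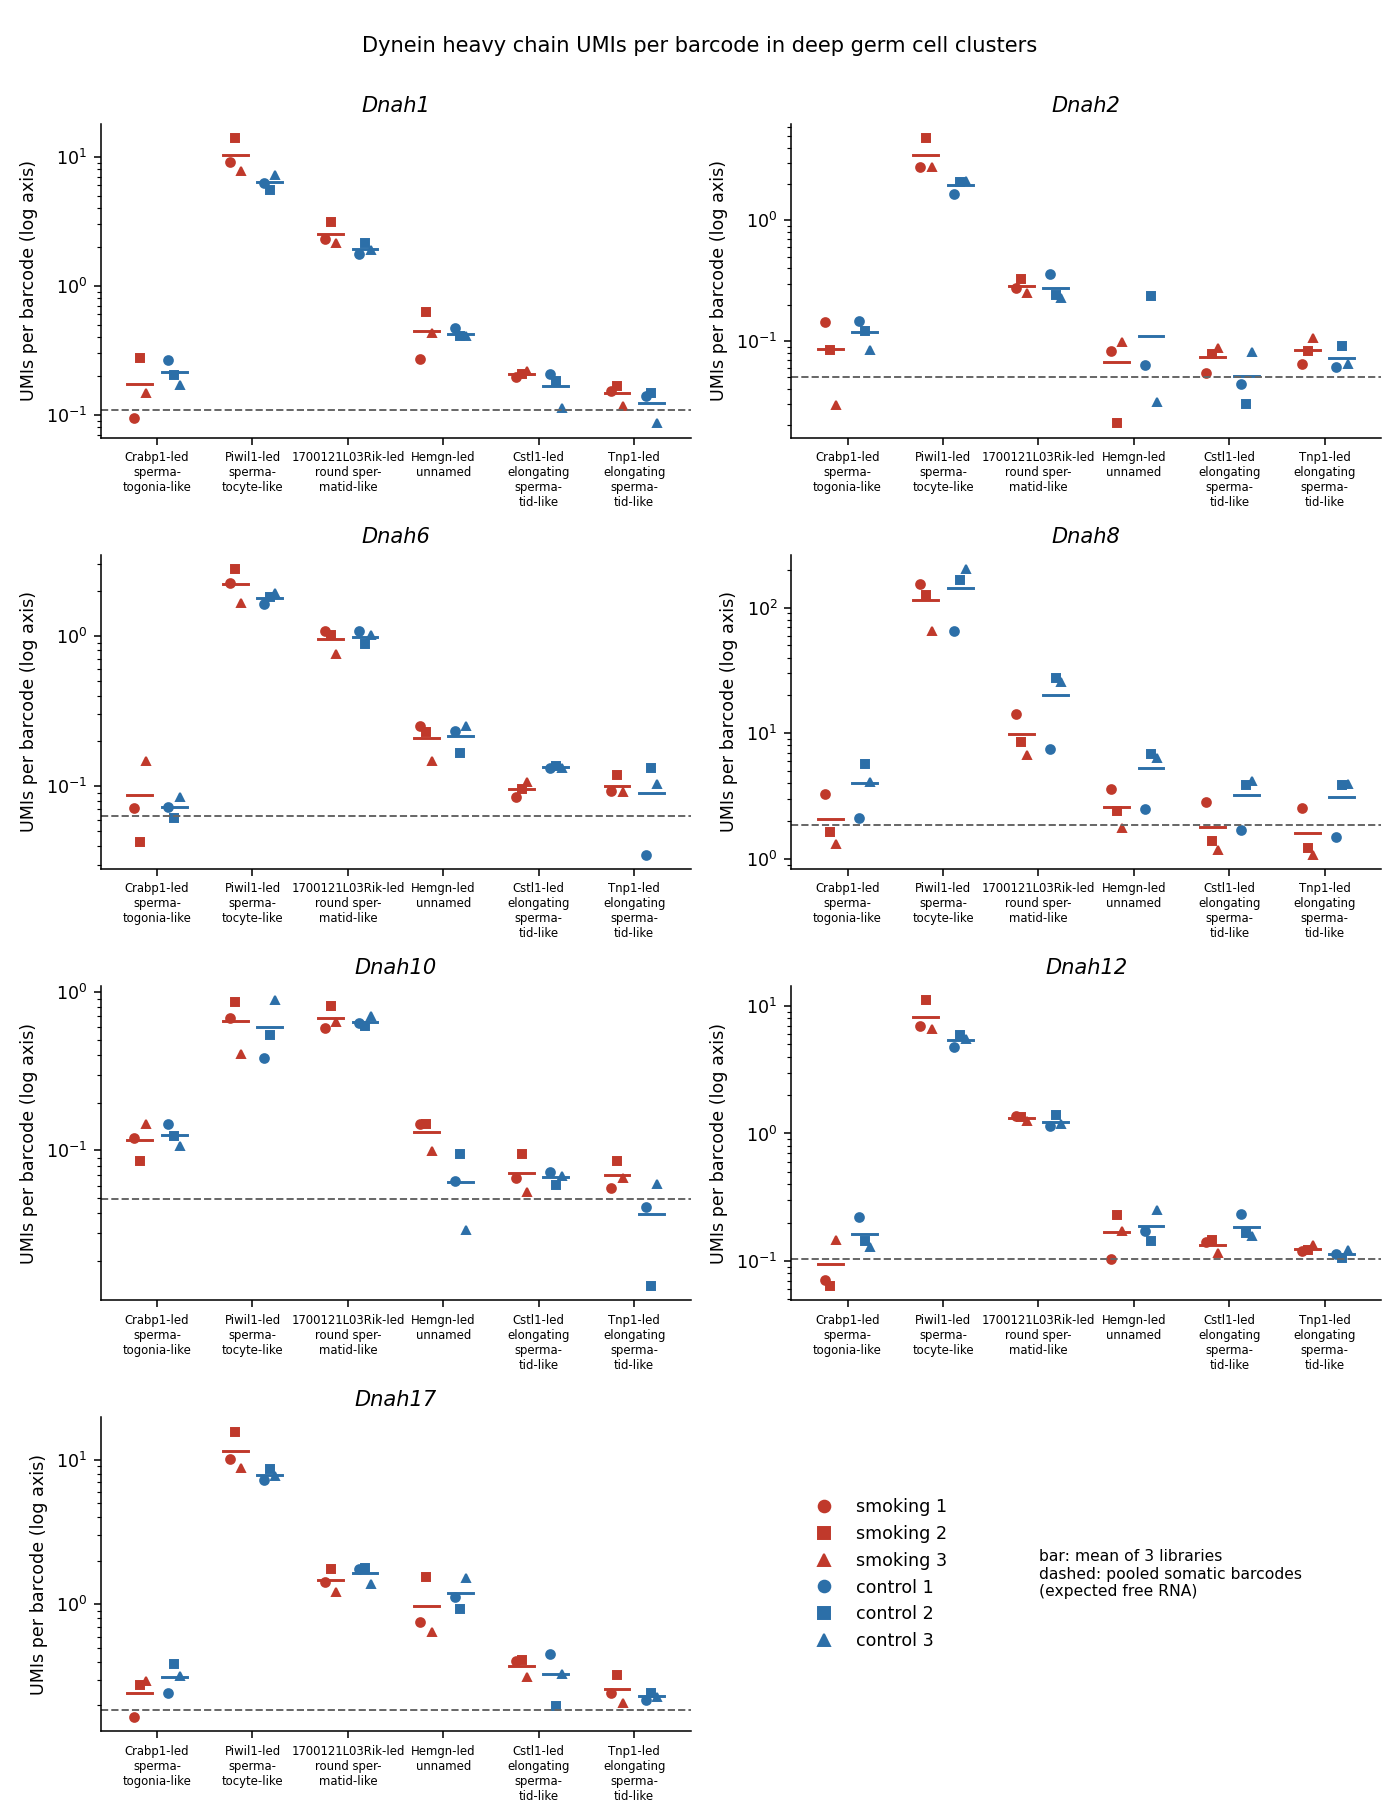
UMIs per barcode of each dynein heavy chain (log axis) in 6 clusters with at least 20 barcodes in every library. Smoking libraries are left and control libraries right within each cluster. The order of clusters was set by hand as a presumed order of stage and was not tested, and the Hemgn-led cluster is unnamed. Points are libraries, bars are means of 3 libraries, and the dashed line is the level in pooled somatic barcodes. Dnah10 is at 0.628 UMIs per barcode in the Piwil1-led and 0.667 in the 1700121L03Rik-led cluster, while the other 6 members have a lower mean in the 1700121L03Rik-led cluster.

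Dnah2 was also above its free RNA level in Leydig-like cells, the steroid-producing cells of the interstitium. They held 101 Dnah2 UMIs where 22.5 were expected from free RNA. The excess lay mainly in the Cyp17a1-led cluster (median 16569 UMIs), at 0.50 Dnah2 UMIs per barcode. The Cyp11a1-led cluster (median 2423.5 UMIs) gave 0.075, against a somatic floor of 0.051. In CPM pooled over libraries these clusters stood at 28.3 and 25.0. By library the Leydig-like level was 14.8, 29.7 and 48.0 CPM in smoking 1, 2 and 3, and 11.9, 34.7 and 27.4 CPM in control 1, 2 and 3, so the groups overlapped. For the other 6 members at least 84.0% of the Leydig-like UMIs were accounted for by the expected free level. Dnah2os, the antisense gene within Dnah2, had 99 UMIs in all retained barcodes, and without strand information reads of the pair cannot be separated.

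Among the 8 other axonemal heavy chains, the stage of the highest level differed. Dnah7a, Dnah7b, Dnah7c and Dnah14 had their highest mean CPM in spermatocyte-like cells, as did most members. Dnah3 gave 214.6 CPM in round spermatid-like cells and 18.2 CPM in spermatocyte-like cells, and Dnah9, an outer arm chain of respiratory cilia, gave 53.1 CPM in round spermatid-like and 3.70 CPM in spermatocyte-like cells. Dnah5 and Dnah11, the other outer arm chains of motile cilia elsewhere in the body, had 608 and 218 UMIs in all libraries together and reached no more than 4.18 CPM as the mean of any class. Cytoplasmic Dync1h1 was highest in spermatogonia-like cells, at 223.7 CPM. The 3 Dnah7 genes are close copies, and counting may split reads between them.

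The genes with the most similar profile over the 8 classes and 6 libraries were found by Pearson's r of log2(CPM + 5) over 48 points, which share libraries and classes, among 13868 genes of at least 10 CPM in some class. For Dnah12 they were Ccdc39 (r = 0.94), part of the ruler that spaces the inner arms, Rsph1 (0.94), a radial spoke head protein, and Cox8c (0.93), a testis form of a cytochrome oxidase subunit. For Dnah17 they were Iqcg (0.94), of the nexin-dynein regulatory complex, Ccdc39 (0.93) and Rsph1 (0.92). Dnah1 was nearest to Pkmyt1 (0.90), a kinase that restrains entry into division, 4933416C03Rik (0.89) and Mad2l2 (0.88). Dnah6 was nearest to Katnal2 (0.90), a katanin-like protein, AC163295.2 (0.90) and Mindy4 (0.89).

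Likeness was lower for the remaining genes. Dnah2 was nearest to Ddt (0.85), Mrps28 (0.82), a mitochondrial ribosomal protein, and Tm2d2 (0.82). Dnah10 was nearest to Abhd17b (0.81), a depalmitoylating enzyme, Clasrp (0.79) and Tprn (0.77). Dnah8 reached 0.78 with Lancl2, 0.78 with Sppl2b and 0.78 with Piwil1, the pachytene piRNA-binding protein. With a pseudocount of 1 in place of 5 CPM, 13 of these 21 named pairings recurred.

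The smoking comparison asked whether exposure moved these transcripts within a class. In spermatocyte-like cells, the class of highest level for most members, none of the 6 tested genes passed an adjusted p of 0.05, and over all 12046 genes tested 0.0249% passed. Dnah10 had 17.4, 13.7 and 15.4 CPM in smoking 1, 2 and 3, and 20.02, 19.7 and 17.6 CPM in control 1, 2 and 3. The groups did not overlap by a narrow margin, and the log2 fold was −0.29 ± 0.14 (SE), with an adjusted p of 0.254 in edgeR's quasi-likelihood test. With stage-matched sums the fold was −0.03. Dnah12 had 112.5, 108.9 and 111.0 CPM in smoking libraries and 106.5, 105.1 and 93.2 CPM in control libraries, a log2 fold of 0.13 ± 0.08 (adjusted p = 0.389). Dnah2 had 40.1, 41.5 and 42.4 CPM in smoking libraries and 38.5, 38.5 and 39.3 CPM in control libraries, the narrowest spread of the family, with a log2 fold of 0.09 ± 0.09 (adjusted p = 0.620).

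The other 3 tested members overlapped between the groups in spermatocyte-like cells. Dnah1 averaged 94.4 ± 6.14 CPM in smoking and 87.9 ± 10.9 CPM in control libraries, Dnah6 averaged 30.9 ± 1.44 CPM in smoking and 34.5 ± 2.85 CPM in control, and Dnah17 averaged 119.5 ± 6.73 CPM in smoking and 124.8 ± 9.55 CPM in control (SD, n = 3 each). Their log2 folds were 0.10 ± 0.10, −0.16 ± 0.11 and −0.06 ± 0.08. Groups without overlap were thus seen in 3 of 6 tested members, and in 24% of all genes tested in the class. No tested member had an unadjusted p under 0.05 here, against 20.9% of all genes. DESeq2 and limma-voom called none of the 6 either.

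In round spermatid-like cells 0 of 6 tested members passed, and 0.00717% of 13949 genes did. Dnah17 had 43.6, 46.3 and 36.9 CPM in smoking libraries and 64.8, 54.9 and 49.6 CPM in control libraries. All smoking libraries were below all control libraries, with a log2 fold of −0.38 ± 0.12 and an adjusted p of 0.344. Dnah12 had 40.0, 38.0 and 39.0 CPM in smoking libraries and 53.2, 52.2 and 40.6 CPM in control libraries, a log2 fold of −0.28 ± 0.11 (adjusted p = 0.358). Control 3 lay next to the smoking libraries for this gene. Barcodes under 6000 UMIs made up 72.1%, 71.5% and 60.3% of this class in smoking 1, 2 and 3, and 82.7%, 82.7% and 74.0% in control 1, 2 and 3. With only deeper barcodes the log2 fold was −0.07 for Dnah12 and −0.24 for Dnah17, and with stage-matched sums −0.09 for Dnah12 and −0.25 for Dnah17.

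The remaining 4 tested members had log2 folds of both signs in round spermatid-like cells. Dnah6 averaged 23.3 ± 2.55 CPM in smoking and 28.9 ± 3.32 CPM in control libraries, with overlap and a log2 fold of −0.28 ± 0.12. Dnah1 was the 1 member with a positive log2 fold, 0.18 ± 0.09, at 46.4 ± 1.85 CPM in smoking and 42.0 ± 2.16 CPM in control libraries. Dnah10 averaged 19.2 ± 1.13 CPM in smoking and 22.2 ± 0.408 CPM in control libraries, and Dnah2 8.54 ± 0.733 CPM in smoking and 10.3 ± 2.02 CPM in control. The groups did not overlap in 4 of 6 tested members, against 18.6% of all genes. At an unadjusted p under 0.05 there were 3 of 6 members (Dnah6, Dnah12 and Dnah17), against 12.9% of all genes. DESeq2 and limma-voom called none, though DESeq2 gave Dnah2 no adjusted p.

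In elongating spermatid-like cells 0 of 6 tested members passed, against 0.101% of 10915 genes. Dnah12 had 6.74, 6.05 and 6.56 CPM in smoking libraries and 13.9, 14.7 and 8.83 CPM in control libraries. The groups did not overlap, with control 3 nearest to the smoking libraries, and the log2 fold was −0.65 ± 0.18 (adjusted p = 0.113). Without control 3 the log2 fold was −0.81 with an adjusted p of 0.00604, and 2460 genes of the class then passed in place of 11. In this class 69.9% of Dnah12 UMIs were accounted for by the expected free RNA. Barcodes under 6000 UMIs made up 22.6%, 22.5% and 18.1% of the class in smoking 1, 2 and 3, and 52.9%, 55.5% and 28.1% in control 1, 2 and 3. With those barcodes left out the log2 fold was −0.33 (adjusted p = 0.553). Of the other members, the groups did not overlap in Dnah6 (log2 fold −0.43 ± 0.20, adjusted p = 0.220), so 2 of 6 in all, against 31.7% of all genes. Both had an unadjusted p under 0.05, against 22% of all genes. DESeq2 and limma-voom called neither, though DESeq2 gave Dnah6 no adjusted p. Without TMM scaling the median of all genes in this class moved by −0.23 on the log2 scale, and the sign of Dnah10, 0.08 with scaling, turned to −0.12.

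**Figure D2:**
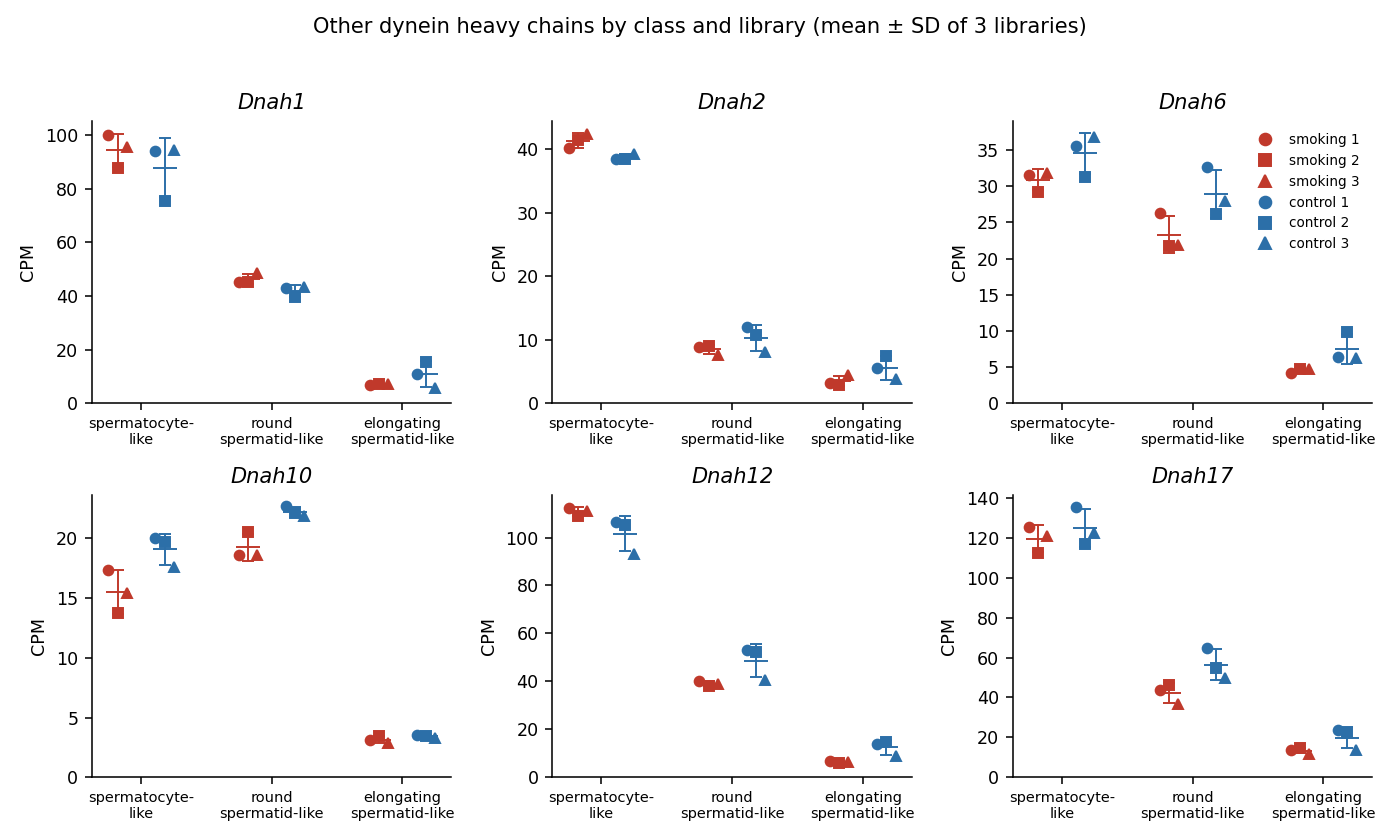
CPM of the 6 tested members in 3 germ cell classes, with 3 smoking libraries left and 3 control libraries right in each class. Points are libraries and bars are mean ± SD. Dnah17 in round spermatid-like cells and Dnah12 in elongating spermatid-like cells show smoking libraries below all control libraries, at adjusted p-values of 0.344 and 0.113.

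Summed over all retained barcodes, the 6 tested members had log2 folds from −0.34 for Dnah6 to −0.04 for Dnah1, all negative, and none passed (lowest adjusted p = 0.311), as none of 18924 genes did (0%). The groups did not overlap in 3 of 6, against 29.1% of all genes, and 3 of 6 had an unadjusted p under 0.05, against 14% of all genes. DESeq2 and limma-voom called none of the 6. With only barcodes of at least 6000 UMIs, 3 of the 6 folds turned positive (Dnah1 0.12, Dnah2 0.073, Dnah12 0.0022) and that of Dnah6 was −0.11. Spermatocyte-like cells held 13.4%, 11.0% and 9.29% of UMIs in smoking 1, 2 and 3, and 14.5%, 12.9% and 12.4% in control 1, 2 and 3, while elongating spermatid-like cells held 28.0%, 29.9% and 39.5% in smoking libraries and 12.4%, 10.5% and 25.0% in control libraries. The largest cluster (9124 barcodes), unnamed and with Gm42418 and Dnah8 as its leading genes, also differed in share. It held 15.9%, 18.9% and 7.04% of barcodes in smoking 1, 2 and 3, and 28.6%, 28.0% and 16.9% in control 1, 2 and 3. Its pooled levels were 53.9 CPM for Dnah1, 29.9 for Dnah2, 35.6 for Dnah6, 26.9 for Dnah10, 78.0 for Dnah12 and 103 for Dnah17. The part of this makeup in the sums was not tested.

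The difference in the smoking effect between neighbouring stages was tested directly with limma on within-library differences. No tested member passed in any of the 3 steps, nor did any gene (0% in each step). From spermatocyte-like to round spermatid-like cells the difference in the effect on Dnah12 was −0.42 ± 0.11 on the log2 scale (adjusted p = 0.285), and that on Dnah17 −0.34 ± 0.15 (adjusted p = 0.328). From round to elongating spermatid-like cells the difference for Dnah12 was −0.39 ± 0.13 (adjusted p = 0.308). At an unadjusted p under 0.05, Dnah12 was counted in both steps, against 16.1% of genes in the earlier and 16% in the later one. From spermatogonia- to spermatocyte-like cells Dnah17 alone could be tested, at 0.30 ± 0.30, where 7.77% of genes had an unadjusted p under 0.05.

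In somatic and premeiotic classes few members had enough counts. Only Dnah17 could be tested in spermatogonia-, macrophage- and mesenchymal-like cells, Dnah2 and Dnah17 in Leydig-like cells, and all 6 in Sertoli-like cells. None passed in edgeR, DESeq2 or limma-voom, none had an unadjusted p under 0.05, and edgeR's adjusted p-values ran from 0.900 to 0.999. Over all genes tested the share that passed was 0% in spermatogonia-like, 0.106% in macrophage-like, 0.0523% in mesenchymal-like, 0% in Leydig-like and 0.00909% in Sertoli-like cells. At an unadjusted p under 0.05 it was 5.28% in spermatogonia-like, 7.96% in macrophage-like, 4.99% in mesenchymal-like, 1.48% in Leydig-like and 3.79% in Sertoli-like cells.

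The wider machinery of dynein arms and the axoneme was followed in 9 lists of genes. By edgeR none passed in either direction among 112 tested in spermatocyte-like, 114 in round spermatid-like and 111 in elongating spermatid-like cells. At an unadjusted p under 0.05 there were 22 of them in spermatocyte-like, 15 in round spermatid-like and 43 in elongating spermatid-like cells, beside 20.9%, 12.9% and 22% of all genes in these classes. DESeq2 called 6 of them in spermatocyte-like cells, 0 in round and 7 in elongating spermatid-like cells, out of 521, 45 and 246 calls over all genes, and limma-voom called none. The other axonemal heavy chains had negative log2 folds in 6 of 6 tested genes in spermatocyte-like cells (median −0.21) and in 6 of 6 in elongating spermatid-like cells (median −0.49), beside medians of −0.02 and −0.05 over all genes tested. Of 18 assembly factors, which fold and preload dynein arms in the cytoplasm, 15 had positive log2 folds in spermatocyte-like cells (median 0.14) and 14 had negative ones in elongating spermatid-like cells (median −0.25). Intermediate and light chains had 7 positive and 8 negative folds in spermatocyte-like cells. Of 22 genes of radial spokes and inner arm anchors, 11 had positive and 11 negative folds there. In elongating spermatid-like cells the median was negative in all 9 lists, from −0.49 in the other heavy chains to −0.07 in the outer arm docking complex. Barcode depth also differed between the groups in that class, as given above.

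Dnah8 stood apart from the other members in how much it differed between libraries. In spermatocyte-like cells it had 1800, 891 and 847 CPM in smoking 1, 2 and 3, and 1000, 2298 and 2840 CPM in control 1, 2 and 3. The groups overlapped, with smoking 1 above control 1, and the means were 1179 ± 538 CPM in smoking and 2046 ± 946 CPM in control libraries (SD, n = 3 each). Its log2 fold was −0.79 ± 0.34, given as a description. Smoking 1 and controls 2 and 3 were also the 3 highest libraries in the Piwil1-led cluster alone, with 2247, 1073 and 1047 CPM in smoking libraries and 1338, 3418 and 3680 CPM in control libraries. That cluster rests on 23 to 49 barcodes in smoking and 26 to 52 barcodes in control libraries, and on 2723 or more Dnah8 UMIs in each.

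In all 8 classes controls 2 and 3 were above smoking 2, smoking 3 and control 1, including cells whose Dnah8 UMIs were mostly at the free RNA level. Smoking 1 was above control 1 in 6 of the 8, and below it in elongating spermatid- and mesenchymal-like cells. Round spermatid-like cells had 414.9, 207.0 and 186.5 CPM in smoking 1, 2 and 3, and 288.5, 880.05 and 790.7 CPM in control 1, 2 and 3. Macrophage-like cells had 460.2, 196.0 and 235.0 CPM in smoking libraries and 269.8, 994.9 and 833.5 CPM in control libraries. On the scale of log2(CPM + 5) minus the mean of the 6 libraries, smoking 2 lay between −1.15 and −0.67 and smoking 3 between −1.18 and −0.76 over the 8 classes. Control 1 lay between −0.63 and −0.05, control 2 between 0.67 and 1.65 and control 3 between 0.70 and 1.03, and smoking 1 was above 0 in 6 of 8 classes. Control 1 was thus below the mean in all 8 classes, with smoking 2 and 3.

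**Figure D3:**
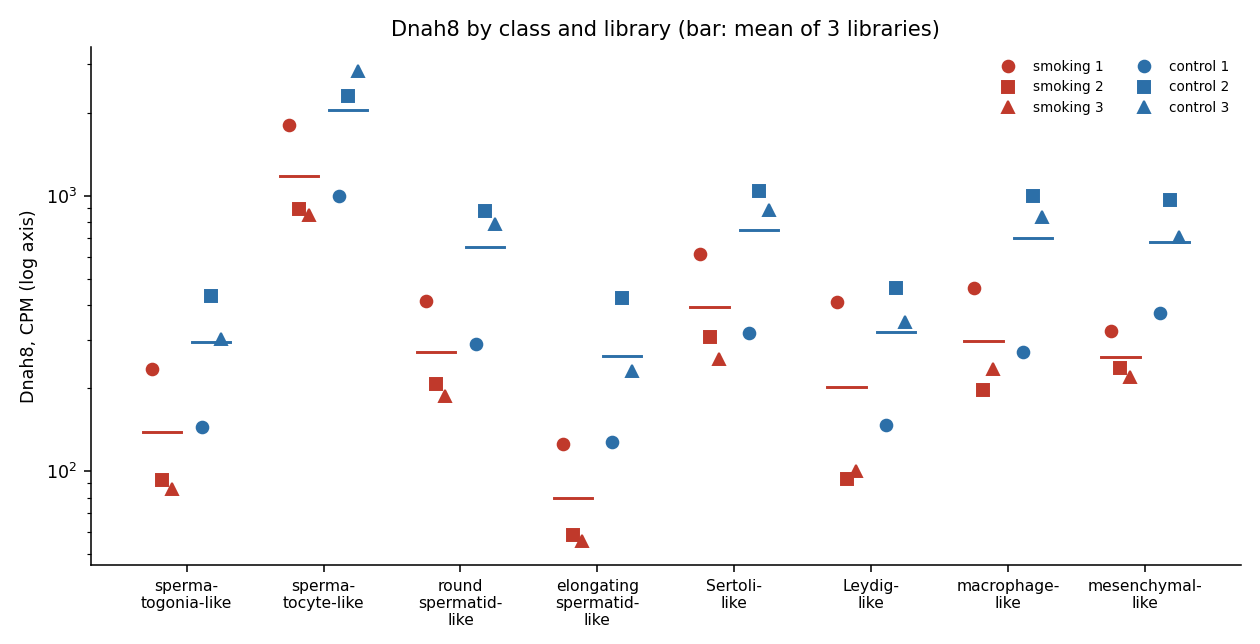
Dnah8 in CPM (log axis) in 8 classes, with 3 smoking libraries left and 3 control libraries right. Points are libraries and bars are means of 3. Smoking 1 is above control 1 in 6 of 8 classes, and controls 2 and 3 are above smoking 2 and 3 in every class.

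Dnah8 was selected on its wide spread, so its rank by spread within groups and its contrast with the other members are a description. In spermatocyte-like cells its within-group SD was 0.72 on the log2 scale, against a median of 0.13 over 7845 genes of at least 10 CPM, which gave Dnah8 rank 20 from the top. Its rank was 25 of 7214 genes in round spermatid-like cells and 30 of 7687 over all barcodes. No other member was near this there. Dnah2 had rank 7804 of 7845 in spermatocyte-like cells, and the most variable of the rest, Dnah10, had rank 3177. In mesenchymal-like cells, however, Dnah8 had rank 862 of 3824 genes, below Dnah17 at rank 427. In elongating spermatid-like cells the within-group SD was 0.78 for Dnah8 and 0.40 for Dnah1. Over the 6 libraries the highest spermatocyte-like level was 3.35 times the lowest in Dnah8, and 1.10 to 1.46 times the lowest in the other 6 members. Summed in spermatocyte-like cells, the other 6 members gave 427.0, 393.3 and 416.9 CPM in smoking libraries and 429.9, 386.7 and 403.6 CPM in control libraries. Over all barcodes their sum was 182.1, 168.2 and 146.8 CPM in smoking libraries and 250.3, 234.8 and 184.2 CPM in control libraries, without overlap. Dnah8 made up 77.0%, 62.4% and 59.6% of all member UMIs over all barcodes in smoking libraries and 65.2%, 84.2% and 84.5% in control libraries.

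The log2 fold of Dnah8 was negative in all 8 classes, from −1.47 in elongating spermatid-like to −0.59 in Leydig-like cells, and depended on which libraries were in it. The groups did not overlap in elongating spermatid- and mesenchymal-like cells and overlapped in the other 6 classes. In elongating spermatid-like cells the margin was narrow, with 124.9 CPM in smoking 1 and 127.4 CPM in control 1. There 31.7% of all genes did not overlap, and with only barcodes of at least 6000 UMIs the log2 fold of Dnah8 was −1.18. The share without overlap was not counted in mesenchymal-like cells. In spermatocyte-like cells the log2 fold was −0.49 without control 3, −0.60 without smoking 3 and −0.62 without smoking 2. It was −0.67 without control 2, −1.12 without control 1 and −1.22 without smoking 1. Classes share the libraries and, outside spermatocyte- and round spermatid-like cells, most of the free RNA, so they are not separate observations.

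Genes near Dnah8 on chromosome 17 were examined by position, a choice made after the data were seen. Of 16 genes in the files within 500 kb of Dnah8, 7 reached 10 CPM in some class, Dnah8 included. 1700097N02Rik is a noncoding gene that starts beside Dnah8 and runs the other way (30622441 to 30626905, minus strand). It overlaps the 5′ end of Dnah8 and, on its own strand, Glo1, and whether reads were shared in these overlaps was not tested. In spermatocyte-like cells it had 994.7, 492.7 and 499.7 CPM in smoking 1, 2 and 3, and 463.7, 1236 and 1439 CPM in control 1, 2 and 3. Smoking 1 and controls 2 and 3 were high and the other 3 libraries low, as in Dnah8, and its within-group SD had rank 18 of 7845.

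Glo1 encodes glyoxalase 1, which detoxifies methylglyoxal, and lies in a stretch of chromosome 17 known to differ in copy number among laboratory mouse strains (30584936 to 30626871, minus strand). Copy number and genotype were not measured here. In spermatocyte-like cells Glo1 had 52.6, 37.1 and 38.2 CPM in smoking libraries and 40.2, 54.7 and 57.8 CPM in control libraries. The same 3 libraries were high, over a narrower range, in which the highest was 1.56 times the lowest. Unlike Dnah8, Glo1 is made by somatic cells. In Leydig-like cells it had 101.9, 176.7 and 114.8 CPM in smoking libraries and 154.8, 303.4 and 279.1 CPM in control libraries, and in Sertoli-like cells 97.0, 81.0 and 88.4 CPM in smoking libraries and 88.5, 130.3 and 149.7 CPM in control libraries. Controls 2 and 3 were the highest libraries in both.

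Btbd9, a further gene upstream that does not overlap Dnah8 (30215524 to 30576488, minus strand), had 47.8, 38.2 and 31.8 CPM in smoking libraries and 42.1, 55.6 and 68.1 CPM in control libraries in spermatocyte-like cells. The order of libraries was again that of Dnah8, but it did not hold in round spermatid-like cells, where Btbd9 had 76.4, 78.3 and 57.7 CPM in smoking libraries and 72.2, 91.2 and 76.3 CPM in control libraries. Genes farther away had other orders of libraries. Zfand3 (30004733 to 30210828, plus strand) had 166.3, 180.4 and 145.8 CPM in smoking libraries and 223.4, 258.9 and 192.6 CPM in control libraries in spermatocyte-like cells, with every smoking library below every control library and a log2 fold of −0.45. In round spermatid-like cells it had 480.3, 477.0 and 478.2 CPM in smoking libraries and 467.5, 470.8 and 506.7 CPM in control libraries, which overlap. Rsph1, on the far side of Dnah8 (31255019 to 31277383, minus strand), had 3385, 3102 and 3211 CPM in smoking libraries and 2606, 2569 and 3189 CPM in control libraries in spermatocyte-like cells.

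**Figure D4:**
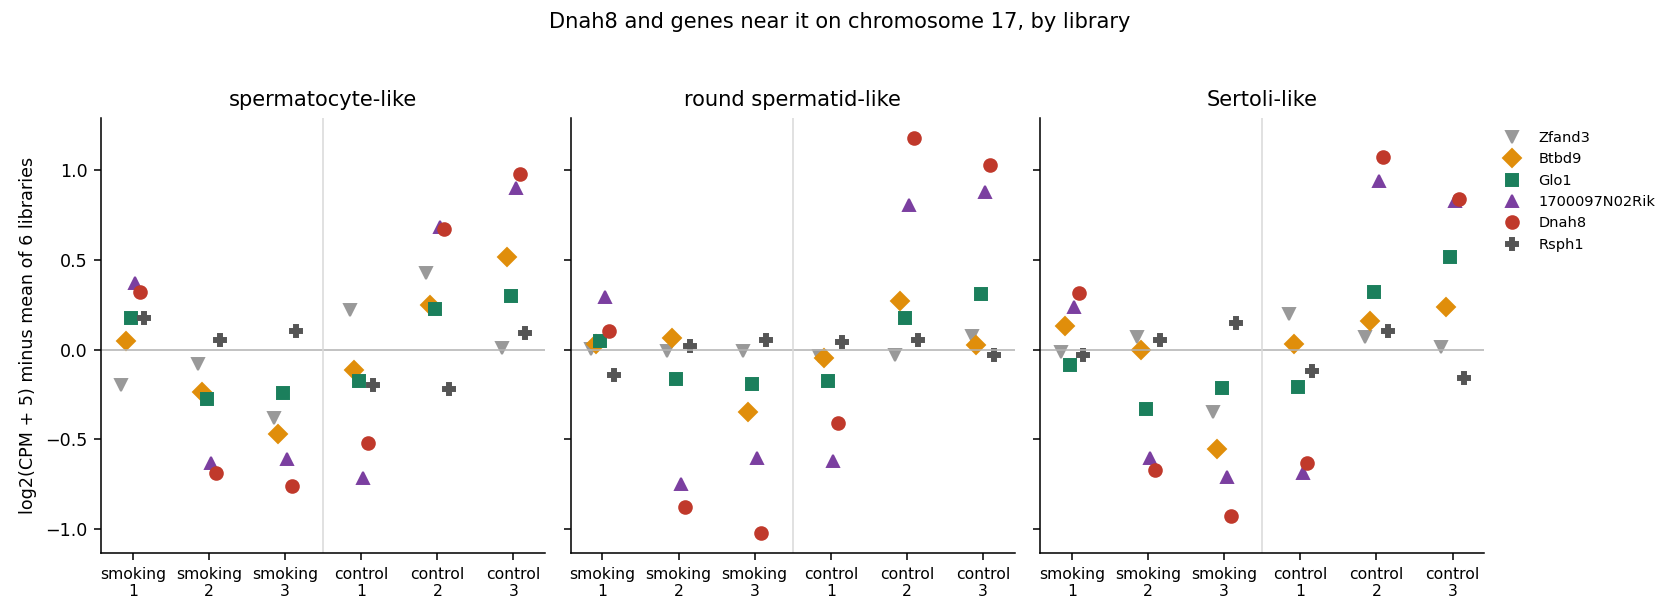
Deviation of log2(CPM + 5) from the mean of the 6 libraries for Dnah8 and 5 genes near it, in 3 classes, smoking libraries left and control libraries right. Each symbol is a gene. Dnah8 and 1700097N02Rik, and over a smaller range Glo1, are high in controls 2 and 3 and low in smoking 2, smoking 3 and control 1, while Rsph1 shows no such order.

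Likeness by library was then ranked over all genes, a measure added after the data were seen. Deviations from the class mean were compared over 48 points of class and library, which share libraries. Among 13868 genes the most like Dnah8 was 1700097N02Rik (r = 0.92), followed by Glo1 (r = 0.71), whose starts lie within 65 bases of the RefSeq start of Dnah8. Both genes overlap Dnah8 and each other. In spermatocyte-like cells alone, among 7845 genes over the 6 libraries, Glo1 and 1700097N02Rik had ranks 1 and 2 and Btbd9 rank 4. For each of the other 6 members the gene of highest likeness by this measure in spermatocyte-like cells lay on another chromosome. Their r over the 6 libraries ran from 0.977 (Dnah12) to 0.996 (Dnah2), beside 0.988 for Dnah8 with Glo1. Over the 48 points the gene of highest likeness lay on the same chromosome for Dnah1 (Sfmbt1, r = 0.76) and Dnah17 (Cep95, r = 0.66). Sfmbt1 (30714849 to 30822721) lies within 500 kb of Dnah1, and its r was above that of Glo1 with Dnah8. A nearby gene of high likeness was thus not particular to Dnah8.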

How the data were processed

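Single-cell RNA-seq of 6 testis libraries was deposited as UMI counts per gene and barcode. Per the file headers these counts came from Cell Ranger 3.1.0. Version 7.1.0 of it, with CASAVA 1.8 and the mm10 genome, is listed in the submitters' processing notes. No barcode held fewer than 1554 UMIs. Barcodes over 20% mitochondrial UMIs (2459) and called doublets (3935, at 0.8% per 1000 barcodes) were removed. The rest were clustered (scanpy 1.11.5, scikit-learn 1.9.0, leidenalg 0.10.2, Python 3.11.15, resolution 1) and named from at least 3 listed markers. Counts were summed per library and class and tested with edgeR 4.0.16 (quasi-likelihood, TMM, R 4.3.3), Benjamini-Hochberg adjusted over all genes at 0.05. Stage differences used limma 3.58.1. Alternatives were DESeq2 1.42.0, limma-voom, no TMM, no filter, other barcode sets, free RNA subtraction and leaving out each library. The fits were tested on simulated data. The text names all 7 members, up to 3 list genes a class past edgeR's threshold (there were none) and the 3 genes most like each member. The members and lists were chosen with earlier results of these data known.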

Additional observations from a re-analysis of the deposited data

How the results depend on the processing

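No paired analysis was possible because replicate numbers were given in accession order only. For 30 log2 folds of members, Dnah8 included, in germ cell classes and all barcodes, there were 432 values under alternatives, of which 416 kept direction and, where tested, side of the threshold, 15 turned sign and 1 newly passed the threshold. In spermatocyte-like cells, free RNA subtraction gave −0.058 for Dnah2 and −0.049 for Dnah12, and leaving out a library gave −0.080 to 0.0038 for Dnah17. With at least 6000 UMIs per barcode, Dnah2 was 0.036 in round and 0.021 in elongating spermatid-like cells and 0.073 over all barcodes, Dnah1 was 0.15 in elongating spermatid-like cells and 0.12 over all barcodes, and Dnah12 was 0.0022 over all barcodes. Stage-matched sums gave 0.0049 for Dnah10 in round spermatid-like cells. In elongating spermatid-like cells Dnah1 was 1.68 after free RNA subtraction and −0.54 to 0.065 over left-out libraries, and Dnah10 was −0.12 without TMM. Over all barcodes Dnah1 was −0.086 to 0.028 over left-out libraries. Members past the threshold in elongating spermatid-like cells numbered 0 to 1 over left-out libraries, the 1 being Dnah12 without control 3. The cause was not tested. With a pseudocount of 1 CPM, 13 of 21 most-like genes were kept. Over all genes, 3 passed in spermatocyte-like cells, against 521 in DESeq2, 1195 without a filter, 38 with stage-matched sums and 2219 without control 3. In round spermatid-like cells 1 passed, against 45 in DESeq2 and 411 without a filter. In elongating spermatid-like cells 11 passed, against 246 in DESeq2, 451 without a filter and 2460 without control 3. Over all barcodes 0 passed, against 440 in DESeq2. All 72 alternative folds of Dnah8 were negative, which is a description. Dnah8 was selected on its lower mean in smoking libraries, and the 72 folds reuse the same libraries. Low counts limit members outside spermatocyte- and round spermatid-like cells, where most UMIs may be free RNA. The views by library deviation, position and UMIs per barcode were chosen after seeing the data.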
